A study of Homo sapiens with 6 samples.

Results

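The 10 genes described here encode lysophospholipid acyltransferases: LPCAT1, LPCAT2, LPCAT3, LPCAT4, MBOAT1, MBOAT2, MBOAT7, AGPAT1, AGPAT2 and AGPAT5. They were taken by gene symbol from 19922 genes shared by the deposited tables, and each was found in both. The set was chosen by the measured knockdown difference of LPCAT2 and MBOAT1, which had already been seen to move in opposite ways after knockdown of UBE2A and UBE2B. That difference between knockdown and control is therefore a description and carries no test. The other 8 genes were added as members of the same enzyme families. All 10 passed the filter on low counts.

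Cells were HEK293A, a derivative of the HEK293 line, which comes from human embryonic kidney. In 3 knockdown libraries the cells had received siRNAs against UBE2A and UBE2B together, labelled as 25 uM of each and 50 uM in total, and in 3 control libraries they had received vehicle. Both groups were read 48 h later. The labels of both groups also give 18.6 ul of reagent, a 60 mm dish, 10% serum and 1% antibiotic. UBE2A and UBE2B are the human RAD6 ubiquitin-conjugating enzymes, and the study examined them as factors in mechanotransduction. The labels name no non-targeting siRNA, so an effect of siRNA in general and an effect of the knockdown cannot be told apart. The labels do not say that replicates were separate cultures, so the p-values reflect spread among these libraries alone, and part of it may be technical.

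The libraries held 10887217 to 14564624 counted reads, and replicates 1 and 2 of each group stood in a first table. A second table held 1 knockdown and 1 control library without replicate numbers. The first principal component, with 56.1% of the variance, separated the tables. The UBE2A transcript averaged 52.9 ± 4.38 CPM (reads scaled to a common library size) in knockdown libraries and 101 ± 3.58 CPM in control libraries, and UBE2B averaged 51.0 ± 4.60 CPM in knockdown libraries and 62.8 ± 1.43 CPM in control libraries (SD, n = 3 each). Of 8 markers of HEK293 cells, 6 were above 1 FPKM in every library, while PAX2 and NEFM stayed at or below 0.706 FPKM; the 8 summed to 263 to 343 FPKM in knockdown libraries and 334 to 375 FPKM in control libraries. The 5 endothelial markers summed to at most 0.997 FPKM and the 6 mature tubule markers to at most 1.12 FPKM in any library, while 6 fibroblast markers summed to 6.58 to 7.75 FPKM in knockdown libraries and 5.93 to 7.46 FPKM in control libraries.

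Glycerophospholipids are built from glycerol 3-phosphate and are then remodelled. A phospholipase A removes a fatty acid from a finished phospholipid, and a lysophospholipid acyltransferase puts another in its place; this deacylation and reacylation is known as the Lands cycle. AGPAT enzymes act in the building step, where they turn lysophosphatidate into phosphatidate. The LPCAT and MBOAT enzymes act mostly in remodelling, and they set which fatty acids sit in phosphatidylcholine, phosphatidylethanolamine, phosphatidylserine and phosphatidylinositol. The names do not follow the protein families: LPCAT1, LPCAT2 and LPCAT4 are relatives of the AGPAT enzymes, whereas LPCAT3 belongs with MBOAT1, MBOAT2 and MBOAT7 to the membrane-bound O-acyltransferases.

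The Gene Ontology terms in the first deposited table described the same overlap of functions. All 10 genes carried 1-acylglycerol-3-phosphate O-acyltransferase activity, a term given to 21 genes of that table. Acylation of lysophosphatidylcholine was assigned to 6 of the 10: LPCAT1, LPCAT2, LPCAT3, LPCAT4, MBOAT1 and MBOAT2. Activity on both lysophosphatidylethanolamine and lysophosphatidylserine was assigned to LPCAT3, LPCAT4, MBOAT1 and MBOAT2, which were all the genes of the table with either term. LPCAT1 and LPCAT2 shared calcium binding and, with LPCAT4, the acetyltransferase activity that makes platelet-activating factor. By KEGG ortholog, LPCAT1 was paired with LPCAT2, MBOAT1 with MBOAT2, and AGPAT1 with AGPAT2.

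The genes lie on 9 chromosomes. LPCAT2 (ENSG00000087253) is on the plus strand of chromosome 16 at 55509072 to 55586666, and MBOAT1 (ENSG00000172197) is on the minus strand of chromosome 6 at 20099684 to 20212469, on hg38 as in the tables. Each of the 10 had the same coordinates and the same length in both tables, unlike 2734 of the shared genes, whose length differed. Lengths used for FPKM ran from 1832 bases for AGPAT2 to 8694 bases for MBOAT2.

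On the per-length scale AGPAT2 and LPCAT1 were the most abundant. FPKM here is the authors' count divided by gene length and library total, so levels set across the tables rest on separate scaling. AGPAT2, an endoplasmic reticulum enzyme whose loss causes congenital lipodystrophy, had 75.2, 73.5 and 91.5 FPKM in knockdown replicate 1, knockdown replicate 2 and the unnumbered knockdown library, against 79.2, 77.6 and 88.4 FPKM in the matching control libraries. LPCAT1, which makes the dipalmitoyl phosphatidylcholine of lung surfactant, had 33.6, 31.8 and 42.9 FPKM in knockdown libraries, against 30.1, 31.2 and 40.7 FPKM in controls. The unnumbered libraries of the second table were the highest of both groups for both genes, and the groups overlapped.

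Below them came MBOAT7 (13.0 to 20.7 FPKM over the 6 libraries), MBOAT2 (9.71 to 12.5 FPKM) and AGPAT1 (7.74 to 9.55 FPKM). Each of these first 5 genes in the order had more FPKM than the next in all 6 libraries, and the ranges of neighbours did not overlap. The lower genes could not be ordered beyond their spread. AGPAT5 (5.10 to 5.98 FPKM), MBOAT1 (4.24 to 7.16 FPKM), LPCAT4 (4.23 to 5.00 FPKM), LPCAT2 (3.02 to 6.12 FPKM) and LPCAT3 (3.03 to 4.33 FPKM) overlapped with their neighbours. LPCAT2 exceeded LPCAT4 in 3 of the 6 libraries, which were the 3 controls.

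**Figure D1:**
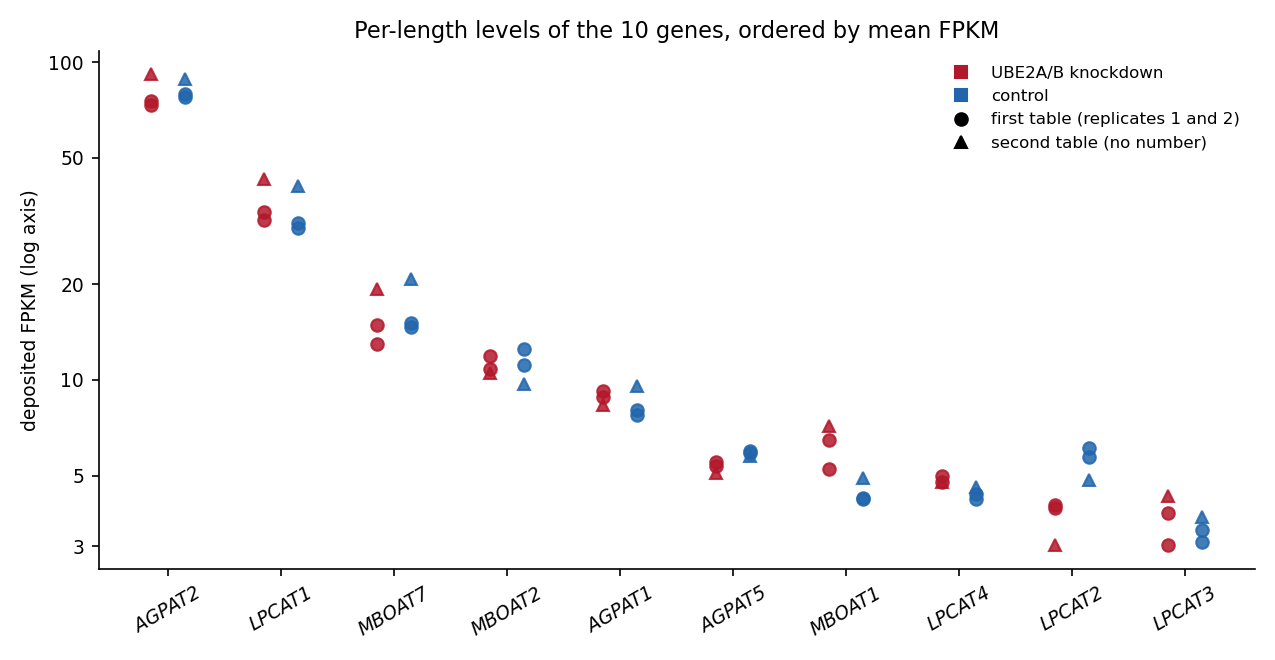
Deposited FPKM of the 10 genes on a log axis, ordered by their mean over the 6 libraries; red symbols are UBE2A/B knockdown libraries and blue symbols control libraries, with circles for the first table and triangles for the second. AGPAT2 lies between 73.5 and 91.5 FPKM, and the 5 lowest genes lie between 3.02 and 7.16 FPKM with overlapping ranges.

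LPCAT2 fell after knockdown. It encodes an acyltransferase of the endoplasmic reticulum and lipid droplets, best known from macrophages, that acylates lysophosphatidylcholine and acetylates lyso-platelet-activating factor. Its counts were 411, 380 and 242 reads in knockdown replicates 1 and 2 and the unnumbered knockdown library, against 613, 610 and 403 reads in the matching controls. Scaled by library with TMM factors, that was 29.6, 29.3 and 21.9 CPM in knockdown libraries, against 42.3, 45.8 and 35.8 CPM in control libraries. Each knockdown library was below each control library, and in both groups the library of the second table was the lowest. Markers of immune cells summed to 0.537 to 0.687 FPKM in knockdown libraries and 0.127 to 0.530 FPKM in control libraries. PTPRC, CD3E and CD68 were at 0 in all 6. Most of each sum was CD14 (0.0833 to 0.446 FPKM), and no direction is read from values this low.

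The LPCAT2 means were 26.9 ± 4.33 CPM in knockdown libraries and 41.3 ± 5.06 CPM in control libraries (SD, n = 3 each). In the edgeR fit with the table of origin as a term, the log2 fold change was -0.62 (standard error 0.09), a decrease by 34.8%. Within the first table the log2 ratio was -0.58, and within the second -0.71. The value that placed LPCAT2 among the chosen genes was an adjusted p of 9.07e-06 in that fit, and it was the 12th lowest log2 fold change among 249 genes that passed as lower. With any single library left out the log2 fold change stayed between -0.66 and -0.58, with the edgeR adjusted p at most 8.52e-04. These fits reuse the values that chose LPCAT2, so they describe its dependence on single libraries and carry no test. When the table term was dropped the adjusted p was 1.00.

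MBOAT1 rose after knockdown. Its enzyme transfers mostly oleoyl groups to lysophosphatidylethanolamine and lysophosphatidylserine, and it has been described, with MBOAT2, as a suppressor of ferroptosis. It had 387, 295 and 337 reads in knockdown replicates 1 and 2 and the unnumbered knockdown library, against 267, 250 and 240 reads in the matching controls. The scaled values were 27.8, 22.8 and 30.6 CPM in knockdown libraries, against 18.4, 18.8 and 21.3 CPM in control libraries. The groups did not overlap, but the gap was narrow: knockdown replicate 2 was the lowest of its group and lay next to the unnumbered control.

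The MBOAT1 means were 27.1 ± 3.95 CPM in knockdown libraries and 19.5 ± 1.59 CPM in control libraries (SD, n = 3 each). The log2 fold change with the table term was 0.47 (standard error 0.10), an increase by 38.5%, and the log2 ratio was 0.44 within the first table and 0.52 within the second. The value that placed MBOAT1 among the chosen genes was an adjusted p of 0.00546, the nearest to the threshold of 0.05 among members inside it. It was the 15th highest of 87 genes that passed as higher. It no longer passed in edgeR without knockdown replicate 1 (log2 fold change 0.39, adjusted p = 0.136) or when the table term was dropped (adjusted p = 1.00). In the first table alone it did not pass either (0.45, edgeR adjusted p = 0.0865). The fits without the unnumbered knockdown library (0.45, edgeR adjusted p = 0.0836) or the unnumbered control library (0.45, edgeR adjusted p = 0.0792) rest on that same first-table contrast. It passed in edgeR without control replicate 2 (adjusted p = 0.0297), control replicate 1 (adjusted p = 0.0138) or knockdown replicate 2 (adjusted p = 0.00321). As for LPCAT2, these fits reuse the values that chose the gene and carry no test.

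**Figure D2:**
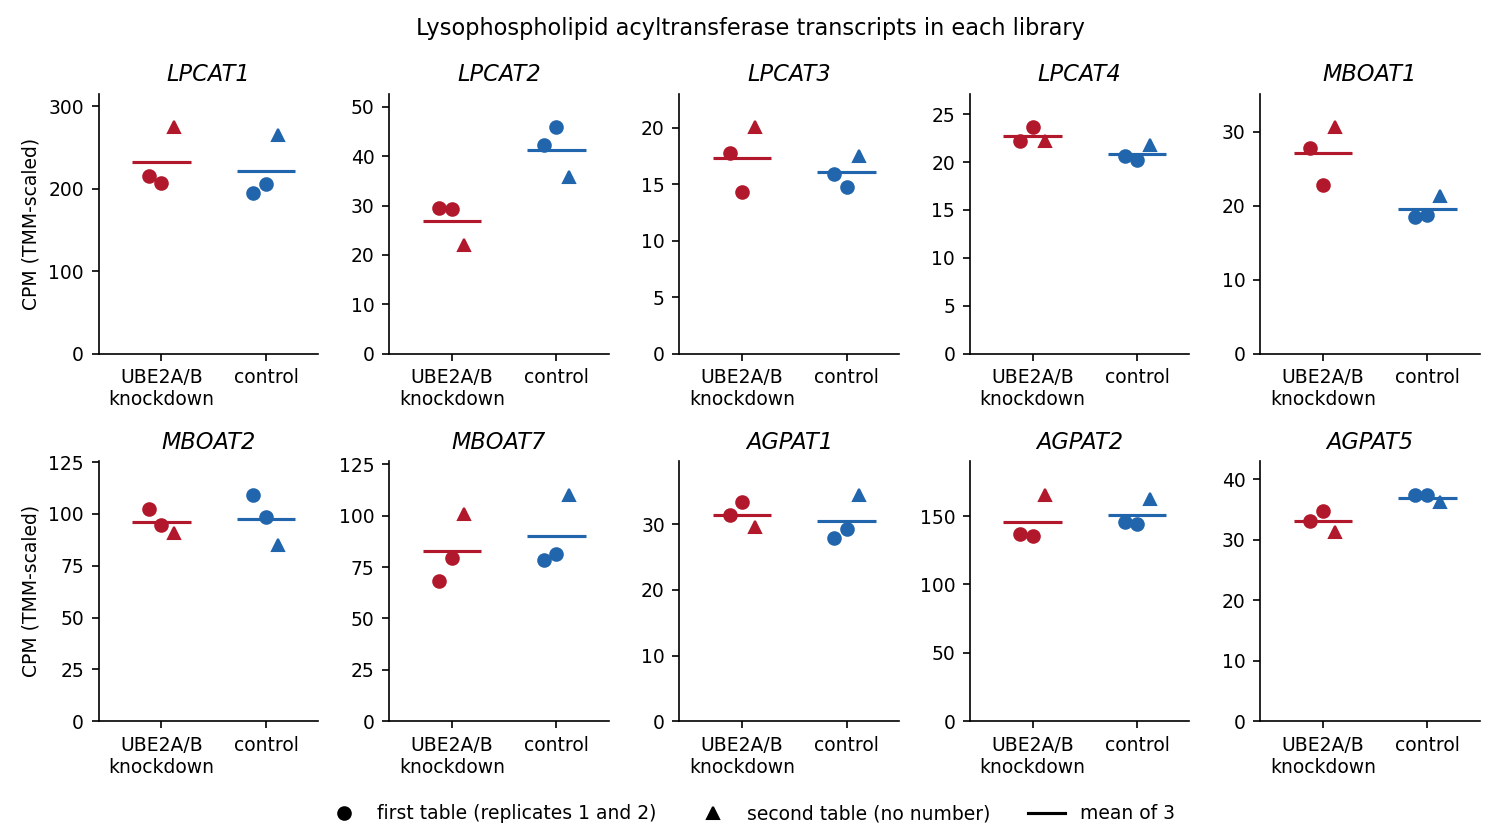
TMM-scaled CPM of each gene, from 0, in the 3 UBE2A/B knockdown libraries (red, left) and the 3 control libraries (blue, right); circles are first-table replicates, triangles second-table libraries and horizontal lines the group means. LPCAT2 lies at 21.9 to 29.6 CPM in knockdown and 35.8 to 45.8 CPM in control libraries, and MBOAT1 at 22.8 to 30.6 CPM in knockdown and 18.4 to 21.3 CPM in control libraries.

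Together, 2 of 10 genes passed an adjusted p of 0.05 with the table term, 1 higher and 1 lower, both of them the genes chosen for it. Over all 13629 genes tested, 336 passed, a share of 2.47%, with 0.638% higher and 1.83% lower. Because the choice of members used this contrast, nothing is read from the count. The median log2 fold change was 0.02 over the 10 genes and 0.00 over all genes. When the table term was dropped, 0 genes passed in edgeR (327 had an unadjusted p under 0.05), and so did 0 of the 10 (2 had an unadjusted p under 0.05). In the first table alone 1 of the 10, LPCAT2, passed as lower and 0 as higher, against 1.13% of all genes, 0.951% lower and 0.176% higher. Groups of knockdown and control libraries did not overlap for 4 of the 10 genes, 2 lower and 2 higher, against 7.70% of all genes, 3.74% lower and 3.96% higher. Of these 4, 1 lower and 1 higher were LPCAT2 and MBOAT1, chosen for this contrast, so nothing is read from this count either.

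Besides LPCAT2 and MBOAT1, the genes whose groups did not overlap were AGPAT5 and LPCAT4. AGPAT5, a mitochondrial lysophosphatidate acyltransferase, had 33.1, 34.7 and 31.4 CPM in knockdown libraries, against 37.4, 37.4 and 36.2 CPM in control libraries. Its log2 fold change was -0.16 (standard error 0.08), and its adjusted p of 0.392 was the nearest outside the threshold. LPCAT4, which acylates lysophosphatidylethanolamine and lysophosphatidylcholine, had 22.2, 23.6 and 22.2 CPM in knockdown libraries, against 20.6, 20.2 and 21.8 CPM in control libraries. The highest control library of LPCAT4 lay just below the lowest knockdown library, and its log2 fold change was 0.12 (standard error 0.10).

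For the remaining acyltransferases of phosphatidylcholine and phosphatidylinositol the groups overlapped. LPCAT1 had 216, 207 and 274 CPM in knockdown libraries, against 195, 205 and 265 CPM in control libraries, a log2 fold change of 0.07 (standard error 0.05). LPCAT3, the main arachidonoyl and linoleoyl transferase for phosphatidylcholine and a target of the liver X receptors (LXR), had 17.8, 14.3 and 20.04 CPM in knockdown libraries, against 15.9, 14.8 and 17.5 CPM in control libraries (0.11, standard error 0.12). It had the fewest reads of the set and the largest standard error.

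MBOAT2, which acylates lysophosphatidylcholine and lysophosphatidylethanolamine, had 102, 94.7 and 90.6 CPM in knockdown libraries, against 109, 98.2 and 84.8 CPM in control libraries. Its log2 fold change was -0.02 (standard error 0.06). MBOAT7, the arachidonoyl transferase for lysophosphatidylinositol, had 68.3, 79.3 and 101 CPM in knockdown libraries, against 78.2, 81.5 and 110 CPM in control libraries (-0.12, standard error 0.06). For both genes the spread between tables exceeded the difference between groups.

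Both AGPAT enzymes of the endoplasmic reticulum had small differences. AGPAT1 had 31.5, 33.4 and 29.6 CPM in knockdown libraries, against 27.9, 29.3 and 34.5 CPM in control libraries, and AGPAT2 had 137, 135 and 165 CPM in knockdown libraries, against 146, 145 and 163 CPM in control libraries. The log2 fold changes were 0.05 (standard error 0.09) for AGPAT1 and -0.05 (standard error 0.06) for AGPAT2. In each of these genes the second table gave the opposite sign to the first.

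In the KEGG pair of LPCAT2 and LPCAT1 the log2 fold changes were -0.62 and 0.07, and in the pair of MBOAT1 and MBOAT2 they were 0.47 and -0.02. In the pair of AGPAT1 and AGPAT2 they were 0.05 and -0.05, each within 1 standard error of 0. The first member of the first pair and of the second pair was chosen for its value, so the contrast within those pairs is a description.

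LPCAT2 and MBOAT1 are minor parts of the summed level of the set, for which the groups overlapped. The 10 genes together had 167, 163 and 197 FPKM in knockdown libraries, against 168, 167 and 193 FPKM in control libraries. AGPAT2 made up 45.5% ± 0.804 of that sum in knockdown libraries and 46.5% ± 0.684 in control libraries (SD, n = 3 each). LPCAT2 made up 2.42%, 2.43% and 1.53% in knockdown libraries, against 3.40%, 3.67% and 2.51% in control libraries. MBOAT1 made up 3.88%, 3.21% and 3.63% in knockdown libraries, against 2.52%, 2.56% and 2.54% in control libraries.

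LPCAT2 and MBOAT1 were chosen for moving in opposite ways, so their ratio is a description. The FPKM of MBOAT1 divided by that of LPCAT2 was 1.60, 1.32 and 2.37 in knockdown libraries, against 0.741, 0.698 and 1.01 in control libraries. MBOAT1 exceeded LPCAT2 in each knockdown library and, by the smallest margin, in the unnumbered control, and the highest ratio of each group came from the second table. Within LPCAT1 to LPCAT4, LPCAT2 had a share of 8.75%, 9.05% and 5.48% of the FPKM in knockdown libraries, against 13.1%, 13.7% and 8.98% in control libraries, and the groups overlapped. Within the 4 membrane-bound O-acyltransferase genes of the set, MBOAT1 had a share of 18.4%, 15.4% and 17.3% of the FPKM in knockdown libraries, against 12.2%, 12.7% and 12.6% in control libraries. In a bulk culture, fewer cells that express a gene and less RNA per cell cannot be told apart.

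The contrast between tables took no part in choosing the genes and could be tested. The second table differs from the first in its libraries and in the gene models of many genes, though not of these 10. In the edgeR fit 5 of the 10 genes passed for the second table over the first, 3 higher and 2 lower, against 38.2% of all genes, 18.5% higher and 19.7% lower. On the log2 scale MBOAT7 differed by 0.46 (standard error 0.07, adjusted p = 8.00e-07), LPCAT1 by 0.39 (0.06, adjusted p = 3.96e-07) and AGPAT2 by 0.22 (0.06, adjusted p = 0.00229). LPCAT2 had -0.35 (0.10, adjusted p = 0.00300) and MBOAT2 had -0.21 (0.07, adjusted p = 0.0152). Without the unnumbered knockdown library 3 of the 10 passed.

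For 4 of these genes the difference between tables was thus larger than that between knockdown and control; LPCAT2 was the exception. An interaction term tested whether the knockdown difference itself differed between tables. It passed for 0 of the 10 genes in edgeR and for 1 of all 13629 genes (0.00734%). An unadjusted p under 0.05 was found for 1 of the 10, AGPAT1, and for 628 of all genes.

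**Figure D3:**
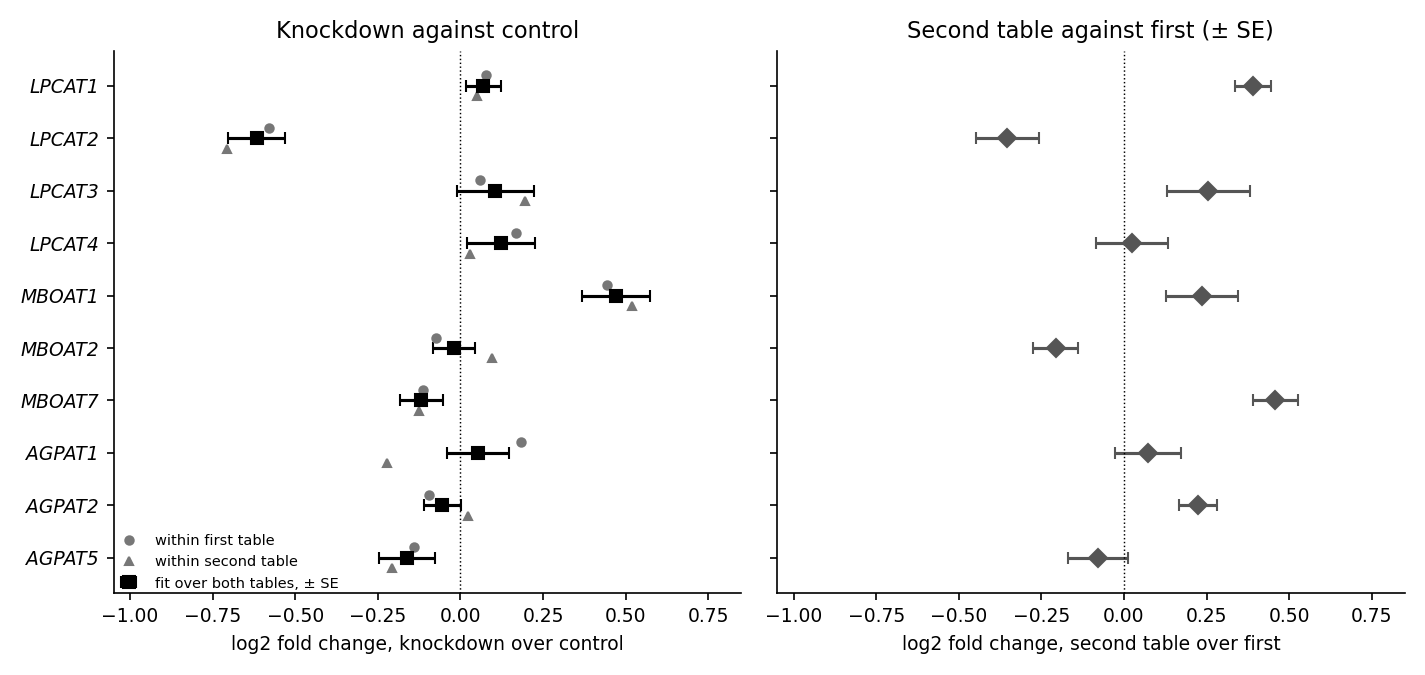
Log2 fold changes of the 10 genes from the edgeR fit with both terms, with bars of 1 standard error: knockdown over control on the left, with the log2 ratio within each table as small grey symbols, and second table over first on the right. LPCAT2 stands at -0.62 and MBOAT1 at 0.47 on the left, with both tables on the same side of 0, while MBOAT7 at 0.46 and LPCAT1 at 0.39 stand highest on the right.

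Transcripts on the opposite strand overlap some of these genes in the GENCODE 29 annotation, and the strand setting of the counting is not given in the sources used here. Whether reads of such partners entered the count of the gene is therefore not known. The overlaps given are of the gene's exons with the whole span of the partner, introns included. For LPCAT3, 4429 bases of exon lie within the span of EMG1 on the other strand, a ribosome biogenesis factor gene with 602, 606 and 422 reads in knockdown libraries, against 743, 737 and 493 reads in control libraries. The log2 fold change of EMG1 was -0.23 (standard error 0.08), which did not pass. LPCAT3 also has 296 bases of exon within the span of C1S on the other strand, which had 54 to 87 reads. AGPAT1 overlaps EGFL8 and PPT2-EGFL8, which had at most 28 reads in any library. For MBOAT1, 264 bases of exon lie within the antisense gene AL158198.1, which was not analysed here. MBOAT1 has 1794 bases of exon in GENCODE 29, against a deposited length of 4325 bases, so part of the counted gene was not checked for overlaps. The same holds for AGPAT5, with 4684 against 6236 bases. No gene of the opposite strand overlaps LPCAT2. On its own strand, 190 bases of LPCAT2 exon lie within the noncoding gene AC007336.1, which was not analysed here. CAPNS2 lies within the LPCAT2 span on the same strand, outside its exons, with at most 2 reads in any library.

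The genes whose values were most like those of LPCAT2 were DCTN4, a dynactin subunit gene, RCBTB1 and UCP2, a mitochondrial carrier gene. Likeness was Pearson's r of log2 CPM over the 6 libraries, after subtracting each table's mean, among 11322 genes of at least 5 CPM. It was 0.999 for DCTN4, 0.998 for RCBTB1 and 0.997 for UCP2, over 6 libraries that share their tables and their groups. These are the 3 highest of 11322 values, and what is left after subtracting table means includes the group difference. The size of r is therefore a description and carries no test. Their log2 fold changes were smaller in size: -0.07 for DCTN4, -0.27 for RCBTB1 and -0.17 for UCP2. Only RCBTB1 of these passed in edgeR (adjusted p = 0.0242). For MBOAT1 the nearest were COL27A1, a collagen gene (0.44), H2AC25, a histone H2A gene of a near-identical family with uncertain counts (0.36), and TRIOBP, an actin-binding protein gene (0.12), with r of 0.999, 0.999 and 0.998 in that order. Only COL27A1 of these passed in edgeR (adjusted p = 0.0274).

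Around the 10 genes, 129 other genes of phospholipid metabolism were read in 9 lists, of which 118 were tested. The lists were chosen with earlier results of these data known, so their counts for knockdown against control are descriptions. With the table term 9 fell and 1 rose, against 1.83% lower and 0.638% higher over all genes, and the median log2 fold change was -0.03 against 0.00 for all genes. DESeq2 called 7 and limma-voom 10. When the table term was dropped 0 passed in edgeR, and 4 passed in the first table alone. The count was 3 without knockdown replicate 1, 3 without control replicate 2, and 4 without either library of the second table.

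Of 18 tested genes for acyl-CoA synthesis, desaturation and elongation, 5 fell and none rose, and 13 did not pass, with a median of -0.17. Over all genes 1.83% fell and 0.638% rose. Because this list was chosen with earlier results of these data known, its count is a description. SCD, the stearoyl-CoA desaturase that makes oleate, had 407, 493 and 397 CPM in knockdown libraries, against 546, 547 and 547 CPM in control libraries (log2 fold change -0.34, standard error 0.06, edgeR adjusted p = 1.85e-04). The elongase gene ELOVL7 had 36.7, 37.4 and 29.2 CPM in knockdown libraries, against 46.1, 49.9 and 37.7 CPM in control libraries (-0.37, standard error 0.08, edgeR adjusted p = 0.00528). The others were named after their values were seen: ACSL3 (-0.28), ACSL4 (-0.29), which activates arachidonate, and ELOVL5 (-0.22), which elongates polyunsaturated fatty acids. DESeq2 and limma-voom each called 5 genes of this list, and edgeR called 2 in the first table alone and 0 without the table term.

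Among 21 tested genes of head group synthesis 3 fell, 18 did not pass and the median was -0.06. ETNK1, the ethanolamine kinase that opens the route to phosphatidylethanolamine, had 151, 142 and 121 CPM in knockdown libraries, against 191, 178 and 154 CPM in control libraries (log2 fold change -0.34, standard error 0.06, edgeR adjusted p = 1.37e-04). PCYT2, the next enzyme of that route, had -0.35 (standard error 0.10, edgeR adjusted p = 0.0366). PTDSS1, a phosphatidylserine synthase gene named after its values were seen, had -0.28. DESeq2 called 2 genes of this list, and edgeR called 2 in the first table alone. Among 24 phospholipase and lysophospholipase genes the phospholipase A1 gene DDHD2 rose (0.23, standard error 0.06, edgeR adjusted p = 0.0312), 23 did not pass, and the median was 0.03. Among 3 tested enzymes of the wider MBOAT family SOAT1, which esterifies cholesterol, fell (-0.24, standard error 0.06, edgeR adjusted p = 0.0276). DESeq2 called 0 genes of the phospholipase list and 0 of the MBOAT list, as did edgeR in the first table alone; limma-voom called 1 of each.

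In 5 of the lists 0 genes passed with the table term in edgeR, DESeq2 or limma-voom. Over all 13629 genes tested, 1917 had an unadjusted p under 0.05 in edgeR, and nothing is read from the small list counts below. Of 8 glycerol-3-phosphate and other lysophosphatidate acyltransferase genes 1 had an unadjusted p under 0.05. It was neither of the most abundant, LPGAT1 (-0.04) and AGPAT3 (-0.03). Of 14 phosphatidate phosphatase, diacylglycerol kinase and diacylglycerol acyltransferase genes 1 had an unadjusted p under 0.05, and neither of the most abundant, DGKZ (-0.02) and DGKH (0.04), did. Of 11 genes of ether lipids and platelet-activating factor, a pathway in which LPCAT2 also acts, 2 had an unadjusted p under 0.05. The most abundant were FAR1 (-0.12), which was 1 of these 2, and PAFAH1B1 (-0.03), which was not. Of 11 genes of lysophosphatidate signalling 1 had an unadjusted p under 0.05, and neither of the most abundant, AGK (-0.11) and the receptor gene LPAR1 (-0.04), did. Of 8 genes of LXR and its targets 2 had an unadjusted p under 0.05, ABCA1 (0.74) and ABCG1 (0.59). Both were named after their values were seen. In the first table ABCA1 had 8 to 29 reads and ABCG1 had 12 to 29 reads. All 8 genes of the list had a positive log2 fold change, with a median of 0.12, against a median of 0.00 over all genes. The most abundant, NR1H2 (0.12) and MYLIP (0.09), were not under 0.05.

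**Figure D4:**
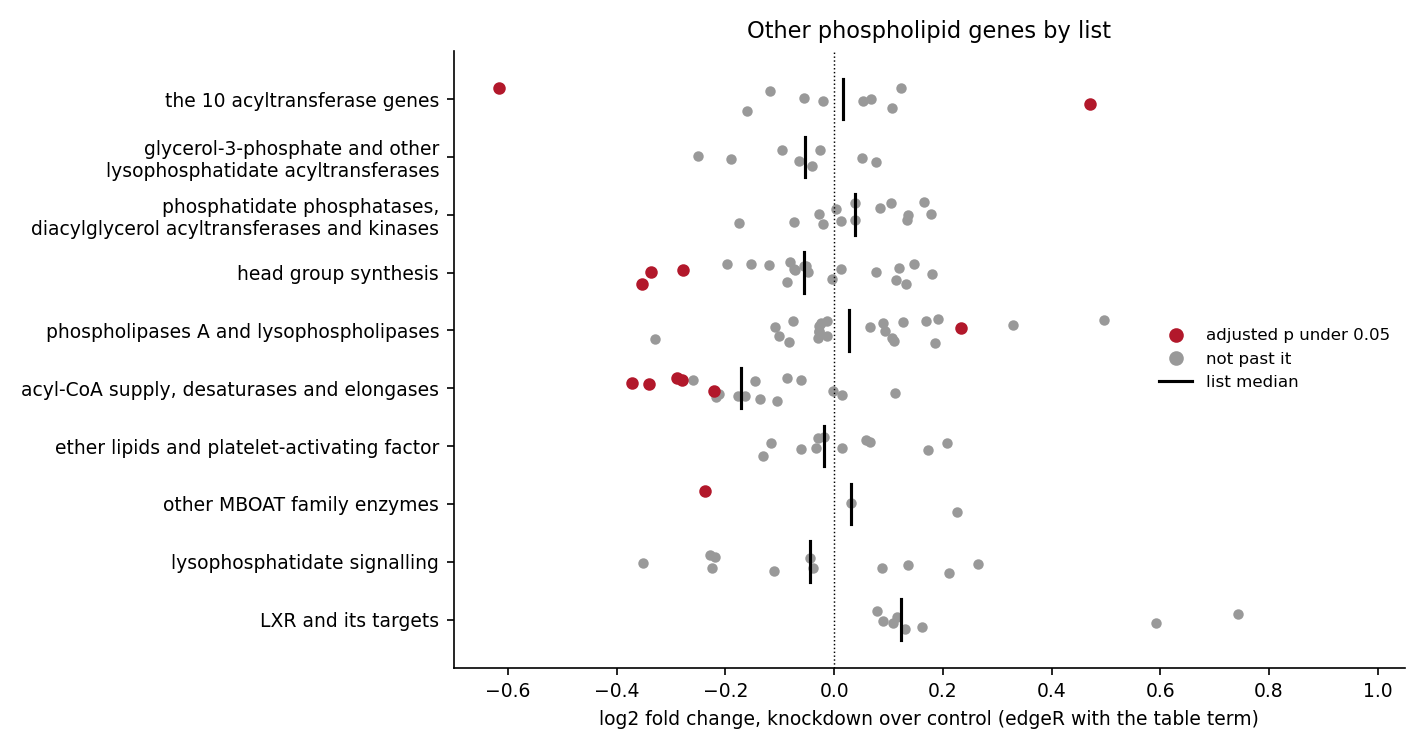
Log2 fold change of knockdown over control, fitted by edgeR with a term for the table, for the 10 acyltransferase genes and for 118 other phospholipid genes by list; red points passed an adjusted p of 0.05, grey points did not, vertical bars are list medians, and vertical scatter within a row has no meaning. The list of acyl-CoA supply, desaturases and elongases has 5 red points, all below 0, and a median of -0.17.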

How the data were processed

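RNA from 6 libraries was measured by sequencing. The authors deposited whole, unnormalized read counts per gene and FPKM in 2 tables; HISAT2, HTSeq and hg38 stand in the submitters' processing notes, without versions. Deposited FPKM equalled the count divided by length and library total as recomputed, and was used for levels only. Tables were joined by Ensembl identifier, with symbols from the reference name table. The column headed siRAD6 was taken as knockdown, RAD6 being the family name of UBE2A and UBE2B.

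The count test was edgeR 4.0.16 (R 4.3.3): filterByExpr, TMM factors, table plus group, quasi-likelihood test, Benjamini-Hochberg adjustment over 13629 genes, threshold 0.05. The fit was tested on simulated data. Alternatives were the group alone, a replicate block, DESeq2 1.42.0, limma-voom 3.58.1, RLE factors, no filter beyond 1 read, a mean of at least 5 CPM, the first table alone and each library left out. In CPM, 3 reads equalled 0.206 to 0.276. No libraries were duplicates: chi-square per gene was 3.52 to 26.0 over genes with at least 20 reads. The members and lists were chosen with earlier results of these data known. Named genes were the members, the targets, 2 per list (largest change past the threshold, otherwise most abundant) and the 3 genes most like LPCAT2 and MBOAT1, by log2 CPM with a prior count of 2.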

Additional observations from a re-analysis of the deposited data

Results flagged for a closer look

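For AGPAT1 and AGPAT2 every knockdown library lay on one side of the controls in the first table and on the other side in the second. The log2 ratio of MBOAT2 also changed sign between the tables (0.10 in the second, -0.07 in the first, a difference of 0.17), but its groups overlapped in the first table. In the second table the knockdown library of AGPAT1 was below its control (log2 ratio -0.22), and in the first both knockdown libraries were above both controls (0.18). The difference between these effects was -0.40 on the log2 scale (standard error 0.20), with an unadjusted p of 0.0436 and an adjusted p of 1.00 in edgeR. For AGPAT2 the log2 ratio was 0.02 in the second table and -0.09 in the first, a difference of 0.12 (standard error 0.12, unadjusted p = 0.338, adjusted p = 1.00 in edgeR). The second table has 1 library per group, so its ratios have no replicate check.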

How the results depend on the processing

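The edgeR count of 336 genes with the table term was 0 with the group alone, 204 with DESeq2 and 154 in the first table alone, and ran from 98 to 420 with 1 library left out. The 2 members called became 0 with the group alone and 1 in the first table alone, and 1 to 2 with 1 library left out. The 10 other phospholipid genes became 0 with the group alone, 4 in the first table alone, and 3 to 11 with 1 library left out. Members called between the tables numbered 3 to 6 with 1 library left out. The interaction count of 0 was the same under each alternative run. Of 139 alternative values of single members, 129 kept their direction and their side of the threshold, 6 lost the call (5 of MBOAT1, 1 of LPCAT2) and 4 changed sign. With 1 library left out the log2 fold change of MBOAT2 ran from -0.073 to 0.042 and that of AGPAT1 from -0.016 to 0.185. The sign changed without knockdown replicate 2 (MBOAT2 0.021, AGPAT1 -0.016) and without control replicate 1 (MBOAT2 0.042, AGPAT1 -0.0069). None of these 4 was called. The cause was not tested. Replicate numbers cover 2 pairs, whose deviations correlated at 0.01, and were not taken as pairing. A fit with the replicate block called 363 genes, 2 members (LPCAT2 -0.62, MBOAT1 0.47) and 10 other phospholipid genes. Leaving out either second-table library leaves its partner without weight in the group contrast. DESeq2 gave no adjusted p for LPCAT3.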

Other observations

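The list of liver X receptors and their targets, which LPCAT3 would join, held several genes that were higher in the second table than in the first. Of 8 tested, 6 passed as higher and none as lower, with a median log2 fold change of 0.61, against 18.5% of all genes higher and a median of -0.00 over all genes (edgeR, table term). The receptor gene NR1H3 had -0.17 and SMPDL3A 0.12, and neither passed. APOE passed in edgeR (adjusted p = 0.0413) and not in DESeq2 (adjusted p = 0.120). ABCG1, a sterol exporter gene, had 12.9 and 9.60 CPM in the second table's knockdown and control libraries, against 2.09 and 1.39 CPM in knockdown and 1.03 and 0.901 CPM in control libraries of the first (log2 fold change 3.06, standard error 0.25, adjusted p = 3.72e-13). ABCA1, the exporter that loads apolipoprotein A-I, had 4.62 and 3.91 CPM in the second table, against 2.09 and 1.47 CPM in knockdown and 0.551 and 0.976 CPM in control libraries of the first (1.80, standard error 0.34). SREBF1, whose gene model differed between the tables, had 1.12 and MYLIP 0.70. Both were chosen after their values were seen, as were ABCG1 and ABCA1. With any single library left out, ABCG1 stayed between 2.89 and 3.30 and ABCA1 between 1.39 and 2.36. LPCAT3 had 0.26 (standard error 0.12, adjusted p = 0.104) in the same contrast and did not pass. The table, its libraries and the way its reads were counted cannot be told apart, and the cause was not tested.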
